A study of Mus musculus with 6 samples.

Results

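The transcripts of 10 amino acid transporter genes, Slc3a2, Slc7a11, Slc7a5, Slc7a8, Slc7a1, Slc38a1, Slc38a2, Slc1a4, Slc1a5 and Slc6a9, were followed in mouse macrophages given LPS with or without metformin. The members were chosen by gene symbol from the 54532 genes measured, and all 10 were found. They were chosen with earlier results of these data known, so that the counts of members called below are a description of these genes. The cells were BMDMs, macrophages grown from the bone marrow of C57BL/6 mice in medium conditioned by L929 cells. RNA-seq was done on 3 groups of 2 libraries, lettered A and B. BMDMs were left untreated, were stimulated with LPS at 100 ng/ml for 2 h, or received metformin at 5 mM for 6 h before the same LPS stimulation (Met + LPS). No group received metformin alone, so that each effect of the drug was measured in LPS-stimulated cells. The methods state that cells were seeded in duplicate, and the sources used here do not say whether A and B came from separate mice. The p-values therefore measure the spread between these samples, which may be technical.

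Metformin pretreatment was accompanied by higher levels of most of these transporters. Compared to LPS, 7 of the 10 were called higher in Met + LPS BMDMs, where 4.19% of all tested genes were. Of these, 6 ranged from 1.84-fold for Slc3a2 to 5.87-fold for Slc7a11. The other, Slc6a9, is given as a description, because it was tested only on account of its level in Met + LPS. Slc7a8, Slc1a5 and Slc38a1 did not pass the cut-offs. LPS alone raised Slc7a11, Slc38a1 and Slc7a8 and lowered Slc38a2.

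Most amino acids cross the plasma membrane through carriers of the SLC families. Slc3a2 (4F2hc, CD98) is a heavy chain without transport activity of its own that is linked by a disulfide bond to a light chain of the SLC7 family, which carries the amino acids. These heteromers are exchangers, which take up one amino acid as another leaves the cell. Carriers of the SLC38 family and SLC6 family use the sodium gradient to accumulate amino acids, and Slc1a4 and Slc1a5 exchange neutral amino acids in a sodium-dependent way. Several of these genes are known targets of ATF4, a transcription factor that is translated when cells lack amino acids or are otherwise stressed. In macrophages, cystine uptake serves glutathione synthesis and arginine uptake serves nitric oxide synthesis.

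Values are TPM, a unit that corrects read numbers for the length of each gene and for library size, so that levels can be roughly compared between genes. The lengths that gave whole read numbers count all annotated exons of a gene, whichever transcript is expressed. They are 3529 bases for Slc3a2 and 17236 for Slc38a1. Orders, shares and ratios between genes are therefore approximate. The reads recovered from the TPM values numbered 25457016 to 30762754 per library. Of 8 macrophage markers, all were present, with summed levels of 44621 to 46599 TPM in untreated, 37412 to 37903 TPM in LPS and 30877 to 30948 TPM in Met + LPS libraries. With LPS the markers did not move together. Cd14 rose from 911 and 998 TPM to 2639 and 2886 TPM, and Adgre1 rose slightly. Fcgr1 overlapped, and Lyz2, Cd68, Csf1r, Itgam and Mertk were lower in TPM. These levels and sums were not rescaled, and comparisons with untreated cells depend on the scaling of the libraries, as described below. In Met + LPS all of the 8 markers but Cd68, which overlapped, were lower than in LPS. Fcgr1, for example, was at 74.9 and 73.8 TPM after 153 and 177 TPM. Most of each sum was Lyz2, at 33981 and 35844, 26974 and 26696, and 21203 and 21381 TPM in untreated, LPS and Met + LPS libraries. Neutrophil markers (6 genes) summed to 29.4 to 32.6 TPM, 26.3 to 27.6 TPM and 42.8 to 45.2 TPM in the same order, and the part of either list in the results below was not tested. Markers of T cells, B cells, dendritic cells, erythroid cells, mast cells and fibroblasts summed to at most 3.18 TPM per list in any library. In such bulk samples, fewer cells of a type and less RNA per cell cannot be told apart.

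The promoter windows of 4 members show how letters bound by known regulators are spread over genes that moved differently. Windows run from 250 bases before to 50 bases after the annotated start (RefSeq, GRCm38.p6), and 7 of the 10 members had at least 1. The promoters of Slc7a5, Slc38a1 and Slc1a5 were not analysed here. Capitals mark the core of the CCAAT-enhancer-binding protein-ATF response element, TGATGNAA, or the core of the antioxidant response element, TGACNNNGC, on either strand. The windows are on the minus strand, Slc7a11 at chr3:50443564-50443863, Slc1a4 at chr11:20332664-20332963, Slc38a2 at chr15:96699679-96699978 and Slc7a8 at chr14:54781837-54782136.
Slc7a11: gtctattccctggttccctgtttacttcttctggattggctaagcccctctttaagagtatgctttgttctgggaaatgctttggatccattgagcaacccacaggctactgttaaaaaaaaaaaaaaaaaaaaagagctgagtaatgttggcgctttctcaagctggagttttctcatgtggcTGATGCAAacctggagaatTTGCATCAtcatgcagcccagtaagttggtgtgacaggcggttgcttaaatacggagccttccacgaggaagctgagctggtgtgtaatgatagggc
Slc1a4: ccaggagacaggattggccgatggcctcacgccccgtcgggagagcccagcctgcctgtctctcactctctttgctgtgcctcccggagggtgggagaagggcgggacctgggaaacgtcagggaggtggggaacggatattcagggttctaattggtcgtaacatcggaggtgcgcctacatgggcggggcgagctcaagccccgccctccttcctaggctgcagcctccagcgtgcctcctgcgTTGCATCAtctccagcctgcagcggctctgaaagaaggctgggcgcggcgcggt
Slc38a2: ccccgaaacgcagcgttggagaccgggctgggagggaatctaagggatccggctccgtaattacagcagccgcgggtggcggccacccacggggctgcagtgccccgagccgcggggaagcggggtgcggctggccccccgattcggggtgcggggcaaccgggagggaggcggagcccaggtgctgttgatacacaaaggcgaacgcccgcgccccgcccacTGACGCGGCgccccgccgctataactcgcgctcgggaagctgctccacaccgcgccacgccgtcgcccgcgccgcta
Slc7a8: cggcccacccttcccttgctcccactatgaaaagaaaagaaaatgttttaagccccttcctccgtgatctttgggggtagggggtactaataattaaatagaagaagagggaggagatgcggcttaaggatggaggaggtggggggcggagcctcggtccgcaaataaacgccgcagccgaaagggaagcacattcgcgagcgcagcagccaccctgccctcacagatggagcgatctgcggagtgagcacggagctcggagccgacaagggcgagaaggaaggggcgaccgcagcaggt
The window of Slc7a11 held 2 copies of TGATGNAA, which begin 66 and 47 bases before the start and lie on opposite strands. The window of Slc1a4 held 1 copy, 4 bases before the start. No other of the 10 member windows held these letters, which occurred in 3.97% of 32851 mouse promoter windows and at least 2 times in 23 of them (0.0700%). Counted by gene, 4.51% had a window with them. The letters TGACNNNGC were found in windows of 3 members, 27 bases before the start of Slc38a2, 11 before that of Slc7a1 and in 2 windows of Slc6a9. They occurred in 12.4% of all windows. The E-box CACGTG, found in 7.15% of all windows, was in none of the member windows. The 2 motifs marked in capitals did not share a window among the members. Each match describes letters in a window, not a site.

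Differences between groups were tested with limma on log2(TPM + 1) across the 12755 genes that reached 1 TPM in 2 or more libraries, with Benjamini-Hochberg adjustment over all of them. A gene was called where its adjusted p was under 0.01 and its log2 fold change was at least 0.7 in either direction. On this scale the change of genes with few TPM is understated. With 2 libraries against 2, an exact permutation test of a single gene cannot reach 0.05. All 10 members passed the filter on low values, Slc6a9 only through its Met + LPS libraries.

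**Figure D1:**
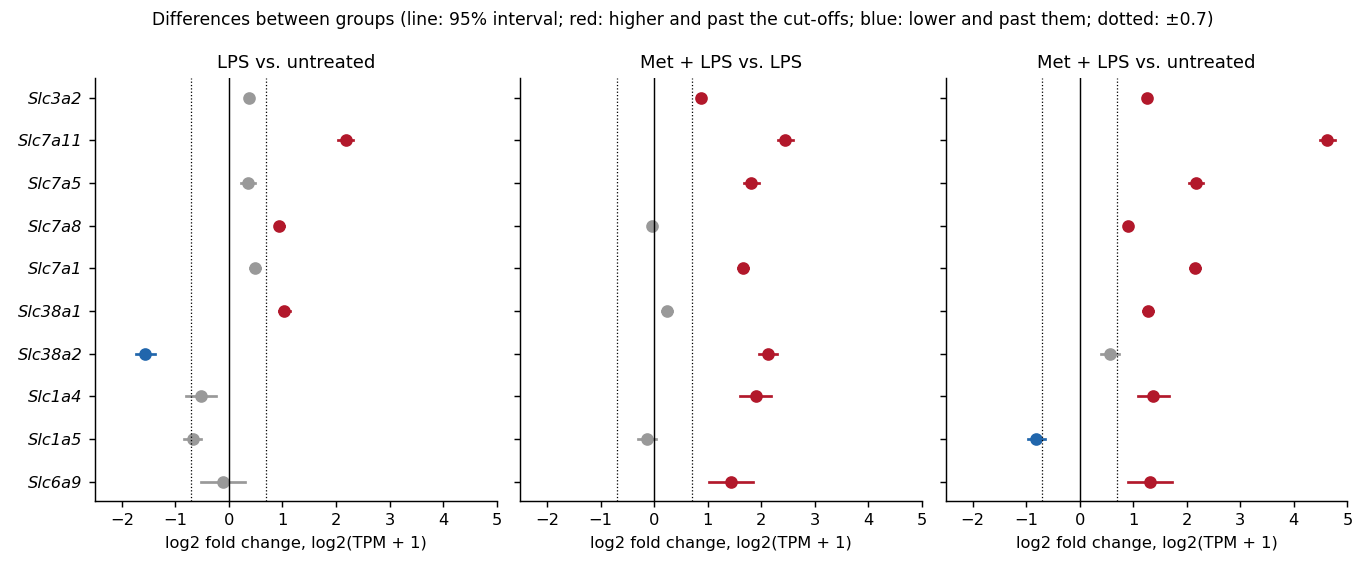
Log2 fold change of each transporter on the log2(TPM + 1) scale in the 3 comparisons, with points at the limma estimate and lines over its 95% interval. In Met + LPS vs. LPS, 7 genes, Slc6a9 included, lie to the right of the dotted line at 0.7, and Slc7a8, Slc1a5 and Slc38a1 lie between the dotted lines.

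To establish how LPS alone affected the transporters, LPS was compared with untreated BMDMs. LPS raised 3 of 10 members and lowered 1, where 10.6% of all tested genes were called higher and 33.8% lower. The median log2 fold change was 0.38 over the 9 members other than Slc6a9 and -0.48 over all tested genes. At the cut-off of 2 that the study used for this comparison, Slc7a11 alone was called among the members, where 3.72% of tested genes were called higher and 2.37% lower. Because the median gene lay at -0.48, the comparison depends on the scaling of the libraries. With libraries rescaled by the median ratio, the median gene lay at -0.01, the calls became 6 higher and 1 lower, and 16.7% and 14.7% of all tested genes were called. The members added by this rescaling were Slc7a5, Slc3a2 and Slc7a1.

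The effect of metformin was measured as Met + LPS vs. LPS. Here 7 of 10 members were called higher and 0 lower, where 4.19% of all tested genes were called higher and 4.09% lower. No member was lower at an unadjusted p under 0.05, and voom on the recovered reads also called 7 higher and 0 lower. Slc6a9 passed the filter only through the group in which it was high, and without it the calls were 6 of 9. The median log2 fold change was 1.66 over these 9 and -0.03 over all tested genes. The rescaling left the same 7 genes called.

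Against untreated BMDMs, 8 of 10 members were higher in Met + LPS and 1 was lower, where 10.1% of tested genes were called higher and 35.9% lower. Without Slc6a9 these were 7 and 1 of 9, with a median of 1.27, beside -0.48 over all tested genes. After rescaling 9 of 10 members were called higher and none lower, with Slc38a2 added and Slc1a5 lost, where 17.4% and 15.7% of all tested genes were called. This comparison shares its libraries with the other two.

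**Figure D2:**
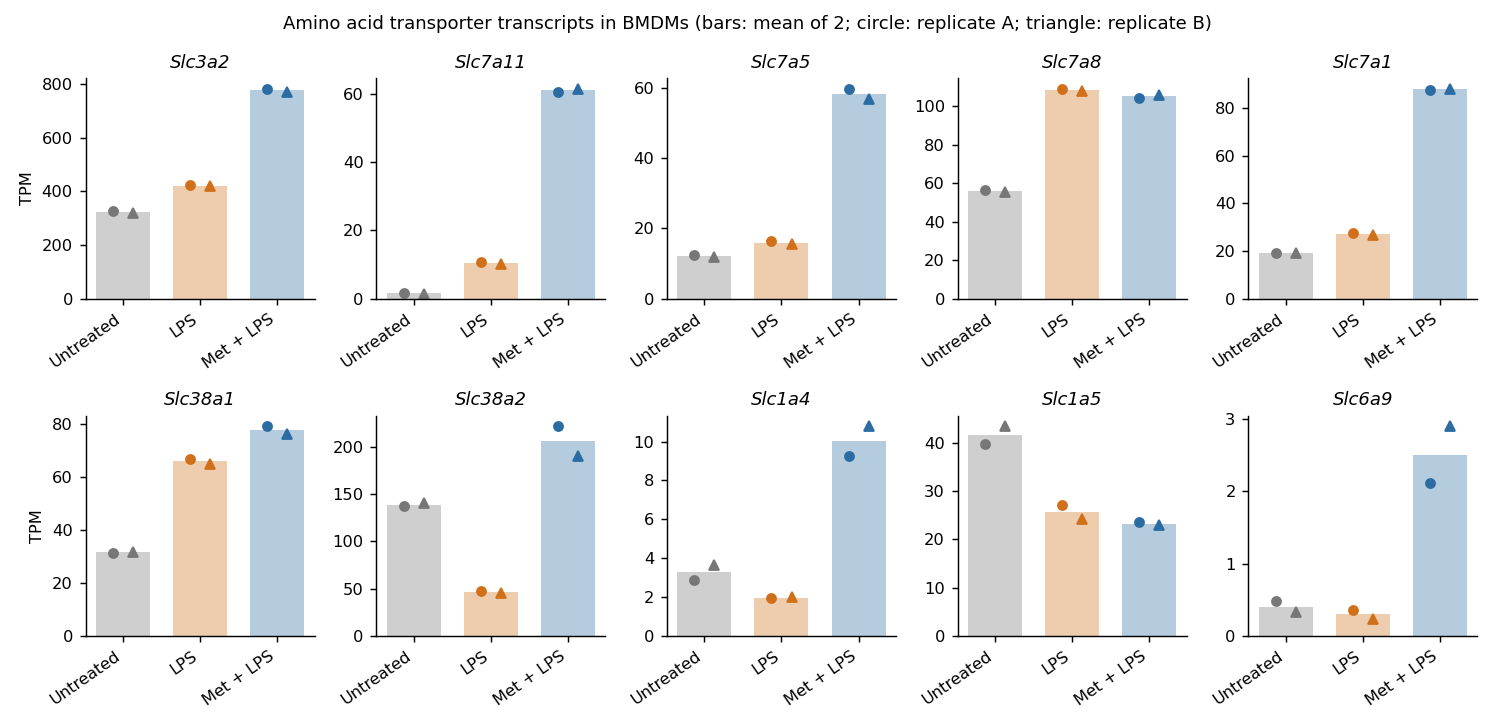
TPM of the 10 transporters in each library, with bars at the mean of the 2 libraries of a group, circles for replicate A and triangles for replicate B, and a separate vertical axis from 0 for each gene. Slc7a11 stepped up in both comparisons, Slc38a2 was lowest in LPS, and Slc1a5 was highest in untreated BMDMs.

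Slc3a2, the shared heavy chain (chromosome 19), was the most abundant member in all 3 groups. Its level was 329 and 319 TPM in untreated, 424 and 419 TPM in LPS, and 783 and 772 TPM in Met + LPS libraries. The groups did not overlap, and each step was upwards. Slc3a2 rose 1.84-fold with metformin (log2 fold change 0.88 ± 0.03 SE, adjusted p = 9.8e-06). The LPS step was smaller, at 0.38 ± 0.03 (adjusted p = 3.3e-05), and under the fold cut-off. With median-ratio rescaling the LPS step was 0.90 and passed.

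Slc7a11 (xCT, chromosome 3), the light chain of the cystine-glutamate exchanger, had the largest fold range of the 10 genes. Its levels were 1.58 and 1.46 TPM in untreated, 10.7 and 10.2 TPM in LPS, and 60.7 and 61.6 TPM in Met + LPS BMDMs. In recovered reads these values rested on 167 and 146, 1131 and 1032, and 6391 and 7585 reads. All 3 groups were separate by far more than the spread between their libraries. LPS raised Slc7a11 by 2.18 ± 0.06 on the log2 scale (adjusted p = 2.5e-07), or 6.85-fold in TPM, and metformin raised it by a further 2.45 ± 0.06 (adjusted p = 4.4e-06). Compared to untreated cells, Met + LPS BMDMs held 40.2-fold more of this transcript. The LPS step was larger, 3.30, in voom with median-ratio scaling.

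Slc7a5 (LAT1, chromosome 8) carries large neutral amino acids such as leucine in exchange for glutamine. It measured 12.5 and 11.7 TPM in untreated, 16.3 and 15.4 TPM in LPS, and 59.6 and 56.7 TPM in Met + LPS libraries. The Met + LPS libraries stood well above both other groups, which lay close together without overlap. Metformin raised Slc7a5 3.67-fold (1.81 ± 0.06, adjusted p = 8.0e-06). For LPS alone the value was 0.36 ± 0.06 (adjusted p = 0.00084), under the cut-off, and 0.85 after rescaling, which passed.

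Slc7a8 (LAT2, chromosome 14), a light chain with a broader range of neutral amino acids, was called in LPS vs. untreated but not in Met + LPS vs. LPS. It was at 56.6 and 55.2 TPM in untreated, 109 and 108 TPM in LPS, and 104 and 106 TPM in Met + LPS BMDMs. Both LPS-stimulated groups were high and the untreated group was low. LPS raised it by 0.95 ± 0.03 (adjusted p = 9.0e-07). With metformin the difference was -0.05, with a 95% interval from -0.13 to 0.04 (adjusted p = 0.31), an interval that reaches neither cut-off.

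Slc7a1 (CAT1, chromosome 5) takes up arginine, lysine and ornithine without a heavy chain. Its levels were 18.9 and 19.1 TPM in untreated, 27.5 and 26.7 TPM in LPS, and 87.7 and 87.9 TPM in Met + LPS libraries. The replicates were nearly equal and the Met + LPS group was set apart. Metformin raised Slc7a1 3.24-fold (1.66 ± 0.04, adjusted p = 4.4e-06). The LPS step of 0.49 ± 0.04 (adjusted p = 3.2e-05) fell short of the cut-off and reached 0.99 after rescaling.

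Slc38a2 (SNAT2), a sodium-coupled carrier of small neutral amino acids that is known to be induced when amino acids are scarce, moved in opposite directions in the first 2 comparisons. Its levels were 137 and 141 TPM in untreated, 47.7 and 45.3 TPM in LPS, and 222 and 191 TPM in Met + LPS BMDMs. The LPS libraries were low, and the Met + LPS libraries were above the untreated ones, with the widest gap between replicates in TPM among the members. LPS lowered Slc38a2, a log2 fold change of -1.56 ± 0.07 (adjusted p = 2.8e-06), or -1.04 after rescaling. Metformin raised it 4.44-fold over LPS (2.12 ± 0.07, adjusted p = 9.4e-06). Against untreated cells the difference was 0.56 ± 0.07 (adjusted p = 0.00032), under the cut-off, and 1.10 after rescaling, which passed. The LPS libraries are shared by the first 2 comparisons.

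Slc38a1 (SNAT1), its neighbour on chromosome 15 and a carrier of glutamine and other small neutral amino acids, rose with LPS. It measured 31.4 and 31.7 TPM in untreated, 66.9 and 64.8 TPM in LPS, and 79.1 and 76.3 TPM in Met + LPS libraries. LPS libraries lay a little below Met + LPS libraries, without overlap, and untreated libraries were low. LPS raised it 2.09-fold (1.04 ± 0.04, adjusted p = 1.2e-06). The metformin difference of 0.24 (95% interval 0.14 to 0.33, adjusted p = 0.0033) was larger than the spread between replicates but well under the fold cut-off.

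Slc1a4 (ASCT1, chromosome 11) exchanges serine, alanine, cysteine and threonine. It was at 2.88 and 3.66 TPM in untreated, 1.94 and 1.99 TPM in LPS, and 9.27 and 10.8 TPM in Met + LPS BMDMs, on 57 to 375 reads per library. The Met + LPS group was high and the LPS group lowest. The gene rose with metformin 5.10-fold over LPS (1.89 ± 0.12, adjusted p = 6.4e-05), and it was 3.07-fold above untreated cells (1.37 ± 0.12, adjusted p = 4.8e-05). The LPS difference was -0.52 ± 0.12 (adjusted p = 0.0057), under the cut-off, and -0.14 after rescaling (adjusted p = 0.32).

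Slc1a5 (ASCT2, chromosome 7), the glutamine exchanger of the same family, did not rise in any comparison. Its levels were 39.8 and 43.5 TPM in untreated, 27.1 and 24.3 TPM in LPS, and 23.6 and 23.0 TPM in Met + LPS libraries. The untreated libraries were high and both stimulated groups were low and close. Metformin made a difference of -0.13 (95% interval -0.30 to 0.03, adjusted p = 0.15). The LPS difference was -0.68 ± 0.07 (adjusted p = 9.3e-05), just short of the fold cut-off. It was -0.74 without untreated replicate A and -0.75 without LPS replicate A. Over the alternative settings this difference ranged from -0.75 to -0.17, and after rescaling it was not called. Slc1a5 was lower in Met + LPS than in untreated cells (-0.81 ± 0.07, adjusted p = 3.8e-05), but after rescaling this was -0.29 and not called.

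Slc6a9 (GLYT1, chromosome 4), a sodium- and chloride-coupled glycine transporter, was the scarcest member. It was at 0.486 and 0.326 TPM in untreated, 0.358 and 0.240 TPM in LPS, and 2.11 and 2.90 TPM in Met + LPS BMDMs. These levels rested on 19 and 12, 14 and 9, and 82 and 132 reads. Untreated and LPS libraries overlapped, and Met + LPS libraries were above both. Met + LPS was 8.39-fold above LPS in TPM, and the log2 value was 1.42 ± 0.17, 2.71 with a pseudocount of 0.1 and 3.03 in voom. Because the gene passed the filter only through the Met + LPS libraries, its test (adjusted p = 0.00081) is no support for the difference. With a minimum of 5 TPM it was not tested. LPS made a difference of -0.11 (95% interval -0.53 to 0.30, adjusted p = 0.55), which turned to 0.02 after rescaling. The gene is uncertain, since 30.2% of its exon bases lie in exons of Gm17114, Ccdc24 and B4galt2 on the opposite strand, and strand-aware counting is not stated.

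The order of the levels changed between groups. In untreated BMDMs it was Slc3a2 (324 ± 6.46 TPM, SD, n = 2), Slc38a2 (139 ± 2.32), Slc7a8 (55.9 ± 0.975), Slc1a5 (41.7 ± 2.58), Slc38a1 (31.6 ± 0.173), Slc7a1 (19.0 ± 0.118), Slc7a5 (12.1 ± 0.523), Slc1a4 (3.27 ± 0.552), Slc7a11 (1.52 ± 0.0804) and Slc6a9 (0.406 ± 0.113), and no neighbours overlapped. In LPS the neighbours Slc7a1 (27.1 ± 0.525 TPM) and Slc1a5 (25.7 ± 1.94 TPM) overlapped. In Met + LPS, Slc7a11 (61.1 ± 0.587 TPM) had moved from place 9 to place 6, above Slc7a5 (58.1 ± 2.08 TPM), and Slc1a5 (23.3 ± 0.445 TPM) from place 4 to place 8. The 10 transcripts summed to 628 ± 2.41, 724 ± 11.0 and 1409 ± 31.3 TPM in untreated, LPS and Met + LPS libraries. Slc3a2 made up 51.6%, 58.2% and 55.1% of the mean sums. Without Slc3a2 the sums were 304 ± 4.05, 302 ± 7.36 and 632 ± 23.4 TPM. In TPM the untreated and LPS sums were within the spread between replicates while their composition differed. All these sums depend on the scaling and were not rescaled. The median-ratio factors, by which TPM are divided, were 1.28 and 1.28 in untreated and 0.891 and 0.885 in LPS libraries.

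Since Slc3a2 pairs with 6 known light chains, its level was set against their sum. Of these, Slc7a5, Slc7a8, Slc7a11, Slc7a6 and Slc7a7 were detected, and Slc7a10 was listed at 0 in all libraries. The light chains summed to 108 ± 0.536 TPM in untreated, 187 ± 5.20 TPM with LPS and 255 ± 1.72 TPM with metformin and LPS. The ratio of heavy chain to light chains was 3.04 and 2.98 in untreated, 2.22 and 2.28 in LPS, and 3.05 and 3.04 in Met + LPS libraries. It was lower in LPS than in both other groups, without overlap, while untreated and Met + LPS libraries overlapped. Counted over Slc7a5, Slc7a8 and Slc7a11 alone, the mean ratios were 4.66, 3.13 and 3.46, and Met + LPS was then nearer to LPS.

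The makeup of the light chains also differed. Slc7a11 was 1.46% and 1.36% of light-chain TPM in untreated, 5.58% and 5.53% in LPS, and 23.7% and 24.2% in Met + LPS libraries. Slc7a5 went from 11.6% and 11.0% through 8.51% and 8.38% to 23.3% and 22.3%. Slc7a8 remained the most abundant, at 52.4% and 51.5%, 57.0% and 58.8%, and 40.8% and 41.7%. Slc7a7 (y+LAT1), which exports cationic amino acids in exchange for neutral ones, was 21.5% and 20.1% in LPS and 7.54% and 7.22% in Met + LPS, and Slc7a6 (y+LAT2) went from 19.2% and 20.1% in untreated to 4.75% and 4.51% in Met + LPS.

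**Figure D3:**
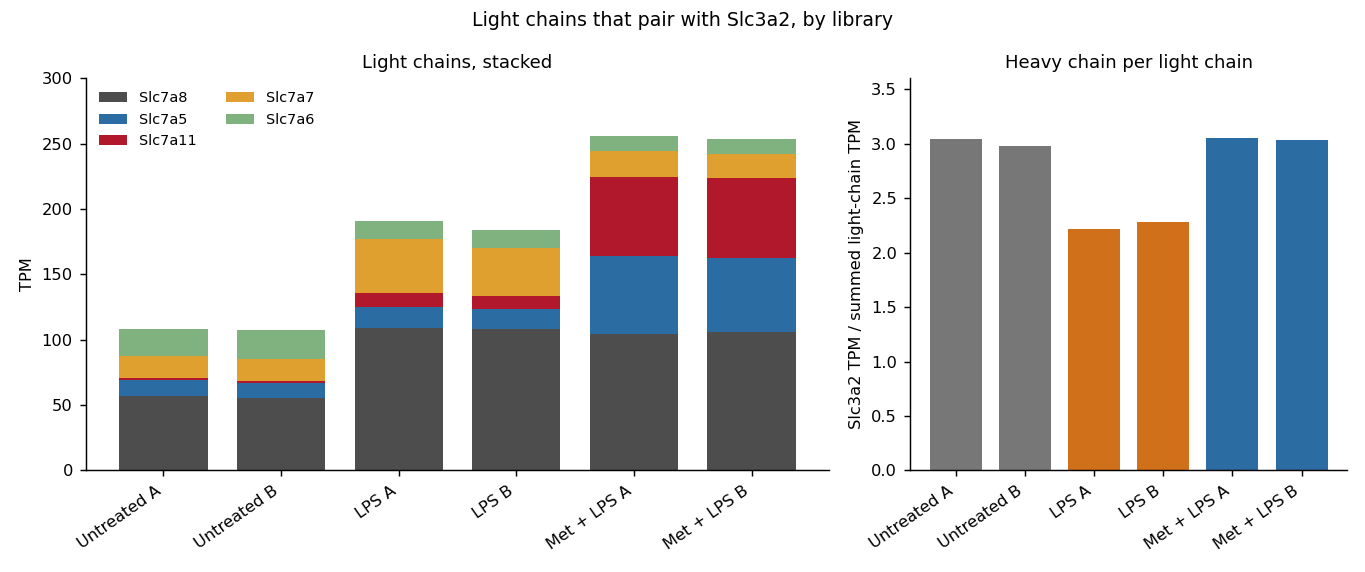
Left, TPM of the 5 detected light chains of Slc3a2 stacked for each library; right, Slc3a2 TPM divided by the summed light-chain TPM, bars starting at 0. The Slc7a11 and Slc7a5 segments are tallest in Met + LPS, and the ratio is lowest in the LPS libraries at 2.22 and 2.28.

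The lists that follow are read against the shares of all tested genes called, which were 10.6% higher and 33.8% lower with LPS (16.7% and 14.7% after rescaling) and 4.19% higher and 4.09% lower with metformin. To see how other carriers moved, 32 further plasma membrane transporters of amino acids were listed, of which 8 were tested. Members and lists were both chosen with earlier results of these data known, so that a contrast between them is a description. With metformin 0 of the 8 rose and 1 fell by limma, with 2 higher and 5 lower at an unadjusted p under 0.05 and 0 higher and 1 lower by voom. Their median was -0.24, beside -0.03 over all tested genes. The one that fell was Slc7a7, from 41.2 and 36.9 TPM in LPS to 19.3 and 18.3 TPM (log2 fold change -1.01 ± 0.06, adjusted p = 6.5e-05). In TPM, its Met + LPS level was close to its untreated level of 16.6 and 17.2 TPM, a comparison that depends on the scaling. In LPS vs. untreated, 3 of the 8 rose and 3 fell, and 2 of the 3 decreases remained after rescaling. Slc7a2 (CAT2), an arginine carrier known to be induced in activated macrophages, rose from 3.41 and 2.70 TPM to 105 and 102 TPM (4.70 ± 0.08, adjusted p = 3.6e-08). In Met + LPS it was at 75.8 and 73.8 TPM, a difference of -0.47 ± 0.08 that was under the cut-off, while Slc7a1 rose. Slc43a2 (LAT4), which lets branched-chain amino acids and other neutral amino acids leave the cell, fell with LPS from 237 and 240 TPM to 81.3 and 76.3 TPM (-1.59 ± 0.06, adjusted p = 1.1e-06), and Slc36a4 fell by 1.37 on the log2 scale. Slc6a6, the taurine transporter, was chosen after its values were seen because it exceeded all 10 members in untreated and LPS BMDMs, at 1198 and 1220 TPM in untreated, 901 and 882 TPM in LPS and 749 and 702 TPM in Met + LPS libraries, where Slc3a2 was higher.

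Lysosomal carriers return amino acids from degraded protein to the cytosol. Of 11 listed, 9 were tested, and with LPS 8 fell and 1 rose, or 6 and 1 after rescaling, where 33.8% of all tested genes fell and 10.6% rose (14.7% and 16.7% after rescaling), with a median of -1.46 (-0.95 after rescaling). Mfsd12, needed for cysteine import into lysosomes, fell from 426 and 436 TPM to 89.7 and 91.7 TPM (-2.24 ± 0.04, adjusted p = 4.6e-08), and Ctns, the cystine exporter of lysosomes, from 88.6 and 88.3 TPM to 28.2 and 26.9 TPM (-1.65 ± 0.05). Pqlc2, an exporter of cationic amino acids, fell by 1.74 and Slc29a3, a nucleoside carrier on the list, by 1.67 on the log2 scale. In Met + LPS vs. LPS 3 of the 9 rose and 0 fell, with 5 higher and 0 lower at an unadjusted p under 0.05 and the same counts by voom as by limma. These were Slc38a7, a lysosomal glutamine carrier, at 83.3 and 78.9 TPM after 47.4 and 47.0 TPM (0.77 ± 0.04, adjusted p = 3.0e-05), Mfsd12 at 156 and 146 TPM (0.73 ± 0.04, adjusted p = 4.4e-05) and Ctns at 47.5 and 43.4 TPM (0.70 ± 0.05, adjusted p = 0.00013). Ctns, at 0.702, and Mfsd12 were only just past the fold cut-off. In TPM all 3 genes remained below their untreated levels, Slc38a7 only slightly (87.5 and 88.1 TPM in untreated).

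**Figure D4:**
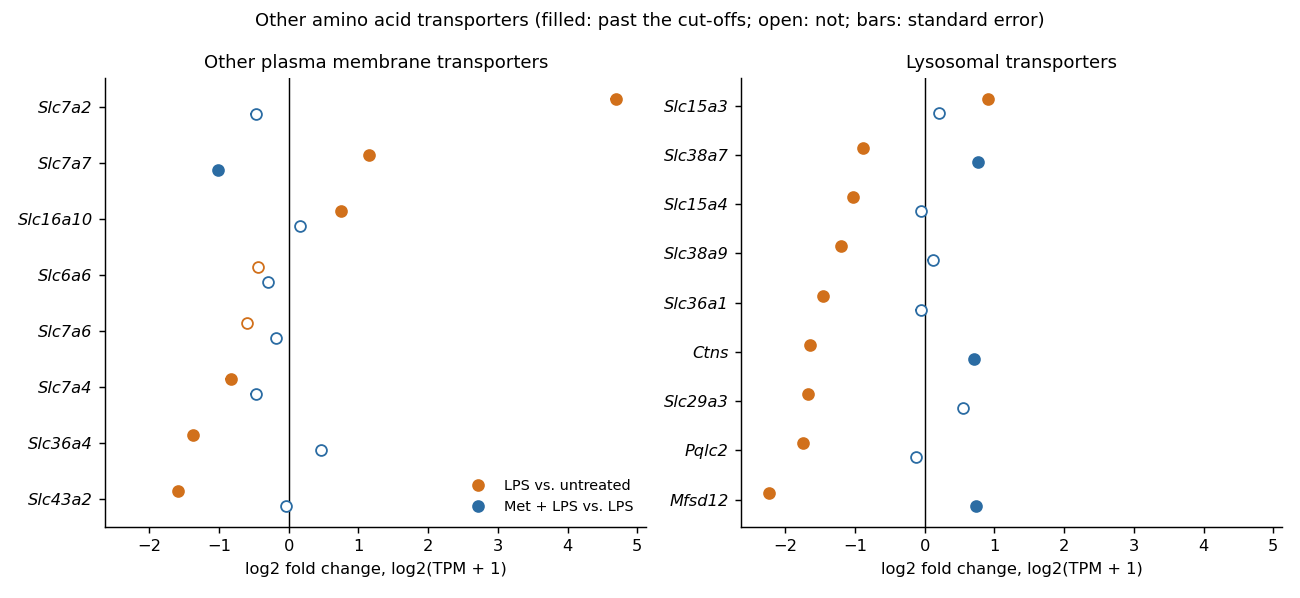
Log2 fold change on the log2(TPM + 1) scale of the tested transporters outside the 10 members, in LPS vs. untreated (orange) and Met + LPS vs. LPS (blue), with standard errors that are mostly shorter than the markers. Filled points passed the cut-offs; in blue these are Slc7a7 on the left and Slc38a7, Ctns and Mfsd12 on the right.

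Regulators known to act on transporter genes were read from a list of 17, of which 16 were tested. Of these, 7 rose with metformin and 1 fell, with a median of 0.35. Trib3, a target and inhibitor of ATF4, was at 18.6 and 17.1 TPM in untreated, 4.88 and 4.26 TPM in LPS and 58.9 and 62.1 TPM in Met + LPS (3.47 ± 0.07 over LPS, adjusted p = 4.4e-06). Ddit3 (CHOP) rose by 1.86 ± 0.04, Myc by 1.40 ± 0.06 and Cebpg, a partner of ATF4, by 1.21 ± 0.07. Atf4 itself, chosen after its values were seen, was at 258 and 258 TPM in untreated, 198 and 194 TPM in LPS and 331 and 334 TPM in Met + LPS (0.75 ± 0.03 over LPS, adjusted p = 1.5e-05). Ddit3 and Cebpg were lowest in LPS, where they fell by 1.71 and 1.23 on the log2 scale from untreated. With LPS 3 of the 16 rose and 5 fell, or 6 and 5 after rescaling, and the median of -0.38 became 0.15. The largest differences were in Ppp1r15a (2.47 ± 0.04), which encodes a phosphatase subunit that reverses eIF2 phosphorylation, and in Eif2ak3 (-2.38 ± 0.08), which encodes the eIF2 kinase PERK.

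Genes of amino acid sensing upstream of mTORC1 were tested for 17 of 17 members of a list. Metformin raised 4 of them over LPS and lowered 1. Sesn2, a leucine sensor, was at 25.2 and 26.6 TPM in untreated, 4.50 and 4.34 TPM in LPS, and 26.0 and 20.7 TPM in Met + LPS (2.16 ± 0.10 over LPS, adjusted p = 2.4e-05). Flcn and Rragd, which act in the Rag GTPase branch, rose by 1.44 ± 0.06 and 1.01 ± 0.08, and Ddit4, an inhibitor of mTORC1, fell by 0.87 on the log2 scale. With LPS 1 rose and 11 fell, beside 10.6% and 33.8% of all tested genes. After rescaling these were 1 and 4, beside 16.7% and 14.7%. Sesn1 showed the largest decrease there, from 186 and 187 TPM to 7.36 and 7.40 TPM (-4.48 ± 0.08, adjusted p = 3.5e-08), and with metformin it was at 7.94 and 6.61 TPM.

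Downstream of cystine uptake, 9 of 13 listed genes of cysteine and glutathione metabolism were tested. In Met + LPS vs. LPS 3 rose and 0 fell by limma, with 5 higher and 2 lower at an unadjusted p under 0.05 and 3 higher and 1 lower by voom. Gclm, the modifier subunit of the rate-limiting enzyme of glutathione synthesis, went from 22.7 and 19.8 TPM to 52.4 and 60.8 TPM (1.37 ± 0.09, adjusted p = 6.8e-05), and Gclc, its catalytic subunit, from 20.7 and 18.6 TPM to 34.7 and 33.9 TPM (0.78 ± 0.06, adjusted p = 0.00013). Chac1, which degrades glutathione, went from 1.52 and 1.59 TPM to 4.77 and 4.28 TPM (1.11 ± 0.10, adjusted p = 0.00024). With LPS alone 1 of the 9 rose and 2 fell, or 1 and 0 after rescaling. The gene that rose, Ggct, was at 0.679 and 0.811 TPM in untreated cells. It passed the filter only through LPS-stimulated libraries, so that its call is no support for a rise. Gclc had fallen by 1.04 on the log2 scale, which was -0.54 after rescaling and not called.

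Enzymes that make or use amino acids were tested for 17 of 22 listed genes. In Met + LPS vs. LPS 6 rose and 2 fell, with a median of -0.01. Asns, asparagine synthetase, rose from 56.9 and 53.6 TPM to 303 and 314 TPM (2.46 ± 0.04, adjusted p = 3.3e-06). Phgdh and Psph, the first and last enzymes of serine synthesis from a glycolytic intermediate, rose by 2.00 ± 0.05 and 1.30 ± 0.08. Psat1, the enzyme between them, named here after its values were seen, was at 30.8 and 30.3 TPM in LPS and 31.3 and 28.8 TPM in Met + LPS, a difference of -0.03 ± 0.05 (adjusted p = 0.73). Nos2, which makes nitric oxide from arginine, was at 0.0596 and 0.0949 TPM in untreated, 121 and 122 TPM in LPS, and 44.5 and 46.1 TPM in Met + LPS BMDMs (-1.40 ± 0.05 vs. LPS, adjusted p = 1.1e-05). With LPS 4 of the 17 rose and 4 fell, or 6 and 0 after rescaling, and the median of -0.33 became 0.19. Among those that rose, Ido2 passed the filter only through its LPS libraries (1.30 and 1.06 TPM). Nos2 and Arg2 passed it only through LPS-stimulated libraries. The calls of these genes in this comparison are therefore no support for a rise.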

How the data were processed

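RNA-seq of 6 BMDM libraries was analysed. Poly-A libraries had been sequenced single-end, and the authors used STAR 2.6.1d for alignment to GRCm38 and counted reads per gene (featureCounts, Subread 1.6.3, per the submitters' processing notes). The deposited values are TPM for 54532 genes; how counts became TPM is not given in the sources used here. Groups and replicate letters came from the sample labels. The letters were not used to pair the samples.

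The 10 members and the 7 gene lists were chosen with earlier results of these data known. Members were all named, and up to 4 called genes per list and comparison. The 12755 genes that reached 1 TPM in 2 or more libraries were tested with limma 3.58.1 (R 4.3.3, lmFit, eBayes with trend) on log2(TPM + 1), all 6 libraries in a common fit without covariates (3 residual degrees of freedom), with Benjamini-Hochberg adjustment. Calls needed an adjusted p under 0.01 and a log2 fold change of at least 0.7, the study's cut-offs for Met + LPS vs. LPS. The test was checked on simulated data.

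TPM hold no depth and no differences in total RNA per cell. Multiplied by GENCODE M21 exon lengths, 96.0% to 96.2% of values were whole multiples of 1 read (tolerance 0.01), which gave the reads per library. Alternatives were other pseudocounts, filters, scaling, cut-offs, sample sets, a replicate block, voom on the recovered reads (2 scalings chosen after seeing the data) and leaving out each library. Coordinates and exon overlaps are of GRCm38, and promoters were scanned on both strands. Summaries used Python 3.11.15 with pandas 2.3.3 and plots matplotlib 3.10.9.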

Additional observations from a re-analysis of the deposited data

How the results depend on the processing

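Of 537 recomputed log2 fold changes of members, 506 kept their direction and their side of the cut-offs, 12 no longer passed, 17 newly passed and 2 reversed, both for Slc6a9 in LPS vs. untreated, which was 0.020 with median-ratio rescaling and 0.10 in voom with that scaling. The 4 members called in LPS vs. untreated became 7 with rescaling, 7 in voom with that scaling, 1 with a fold cut-off of 2 and 9 with none. The 9 called in Met + LPS vs. untreated became 3 with a fold cut-off of 2. The mean ratio of Slc3a2 to light chains became 4.66, 3.13 and 3.46 with 3 light chains. Without each library in turn, 4 to 5, 7 to 7 and 9 to 9 members were called in LPS vs. untreated, Met + LPS vs. LPS and Met + LPS vs. untreated. With the replicate letter as a replicate block the counts were 4, 7 and 9. Deviations of same-lettered libraries correlated at -0.0037, 0.028 and 0.0062, and the letters were not used to pair the samples. Such values show no large shared deviation. They cannot tell whether same-lettered libraries came from the same mice. Voom with TMM scaling was planned and not run, and the 2 voom settings used instead were chosen after seeing the data. Depth limits Slc6a9 in untreated and LPS libraries, at 9 to 19 reads.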

Other observations

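Profiles over the 6 libraries were compared by the root-mean-square difference of centred log2(TPM + 1) values, for the 3 members with the largest change in Met + LPS vs. LPS. The libraries and their scaling are shared by all genes, and the likeness is a description. Aars, which encodes alanyl-tRNA synthetase, was nearest to Slc1a4 (0.14 on the log2 scale), at 66.7 and 68.4 TPM in untreated, 55.0 and 53.6 TPM in LPS and 169 and 175 TPM in Met + LPS libraries. It was followed by Rn7sk, Dusp8, Phgdh and Eprs (0.19 to 0.21), and 16 genes lay within 0.25. Arl4c was nearest to Slc38a2 (0.09), at 91.8 and 89.0 TPM, 26.2 and 29.0 TPM, and 128 and 120 TPM in the same order. Next came Mir7030, Mir669n, Gas2l3 and Rassf8. Mir7030 and Mir669n were listed at 0 in both LPS libraries and reached at most 4.41 and 4.90 TPM in any library. The reads behind these low values are not given here, so that their places in the order are uncertain. No gene lay within 0.25 of Slc7a11, and the nearest were the cytokine genes Lif and Il23a, both at 0.34, then Htr2a, Gm43814 and Tnfsf18. Lif was at 0.0302 and 0.0321 TPM in untreated, 2.39 and 2.20 TPM in LPS and 13.4 and 13.5 TPM in Met + LPS libraries.

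Of 10 listed mitochondrial carriers of amino acids, 7 were tested, and in Met + LPS vs. LPS 0 were called by limma, with 3 higher and 1 lower at an unadjusted p under 0.05 and 0 called by voom. With LPS, 1 rose and 3 fell, beside 10.6% and 33.8% of all tested genes, or 1 and 1 after rescaling, beside 16.7% and 14.7%. Slc25a38, a glycine carrier needed for heme synthesis, fell from 16.8 and 17.9 TPM to 5.45 and 5.79 TPM (log2 fold change -1.47 ± 0.08, adjusted p = 4.7e-06 by limma), and Slc25a22, a glutamate carrier, rose from 15.0 and 16.4 TPM to 27.7 and 33.0 TPM (0.90 ± 0.09, adjusted p = 8.5e-05).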
